A study of Mus musculus with 8 samples.

Results

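The matrix metalloproteinases (MMPs), the ADAMTS proteases and their tissue inhibitors (TIMPs) were followed in the annulus fibrosus (AF), the fibrous ring of the intervertebral disc, of mice with and without the transporter *Abcc6*. All probe sets whose annotated gene symbol was an Mmp number, an Adamts number or one of *Timp1* to *Timp4* were taken, and no measured value entered this choice. They numbered 43, 1 for each of 43 genes, among 22206 probe sets compared, and comprised 21 MMPs, 18 ADAMTS proteases and 4 TIMPs. *Mmp15*, *Mmp27* and *Adamts2* were not analysed here. The samples were lumbar AF from 4 wild-type mice (ABCC6WT, mice 1, 2, 3 and 5) and 4 knock-out mice (ABCC6KO, mice 6, 7, 8 and 9), called WT and KO below. All 8 mice were untreated 7-month-old females, the strain given in the methods is C57BL6J, and the deletion of *Abcc6* is global rather than limited to the disc. AF of the lumbar discs of 1 mouse was combined on 1 Clariom S array, so that mice are the replicates. Single values follow the order of mouse number within the genotype throughout. The deposited values are log2 signal after sst-RMA, a normalization over all arrays. Probes differ in how well they bind, so that signal is compared between mice for 1 gene and not between genes.

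MMPs are zinc-dependent endopeptidases that are secreted or held at the membrane as inactive proenzymes, and together they cut most components of the extracellular matrix. ADAMTS proteases carry thrombospondin repeats that bind matrix. Some of them cut aggrecan and versican, others trim procollagens or act on microfibrils. TIMPs bind the active site of MMPs, and *Timp3* also restrains several ADAMTS proteases. In the disc, the balance between these enzymes and their inhibitors is known to set the turnover of collagen and aggrecan.

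The arrays were compared first. Probe sets labelled as negative controls had medians of 5.40 to 6.0 log2, and a member under this level on its array was not shown to lie above background. What these probe sets match was not checked, so that background of a signal means this median below. Their 95th percentile exceeded the positive control median on some arrays, as in KO mouse 7 (10.96 against 8.36 log2). On others it did not, as in KO mouse 8 (9.35 against 9.70 log2). The median of the positive minus the median of the negative controls, called the control contrast, averaged 3.82 ± 0.53 in WT and 3.13 ± 0.83 in KO mice (mean ± SD, n = 4 each). KO mouse 8 stood apart from its genotype with a contrast of 4.30, against 2.37 to 2.99 in the other KO mice. The AF markers *Acan* (13.08 to 17.76 log2) and *Comp* (12.93 to 16.33 log2) were far above background in every mouse, and 7 of 12 AF and cartilage markers exceeded the negative control median on all arrays, whereas the tendon factor *Scx* did so on none. All 12 measured genes of the list for neutrophils and their precursors were above that median on all arrays. The list means were 16.84 to 17.86 log2 in WT and 15.45 to 17.63 log2 in KO mice. The list includes *Mcpt8*, which encodes a basophil protease and ranged from 10.13 to 17.72 log2. List means without it were not computed. In such bulk tissue, fewer cells of a type and less RNA per cell cannot be told apart.

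Of the 43 genes, 16 exceeded the background set by the negative control median in all 8 mice, 12 in none and 15 in some (37.2% in all mice, against 47.8% of all probe sets tested). Those above it in every mouse included the collagenases *Mmp8* and *Mmp13*, the gelatinases *Mmp2* and *Mmp9*, the membrane-type enzyme *Mmp14* and the inhibitors *Timp1* and *Timp2*. Those above it in none were *Mmp1a*, *Mmp1b*, *Mmp7*, *Mmp10*, *Mmp24*, *Adamts8*, *Adamts12*, *Adamts13*, *Adamts15*, *Adamts16*, *Adamts17* and *Adamts20*. The upper end of the negative controls was much higher, and at their 95th percentile (9.35 to 10.96 log2) 3 genes, *Mmp8*, *Timp2* and *Mmp13*, remained above on all arrays.

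**Figure D1:**
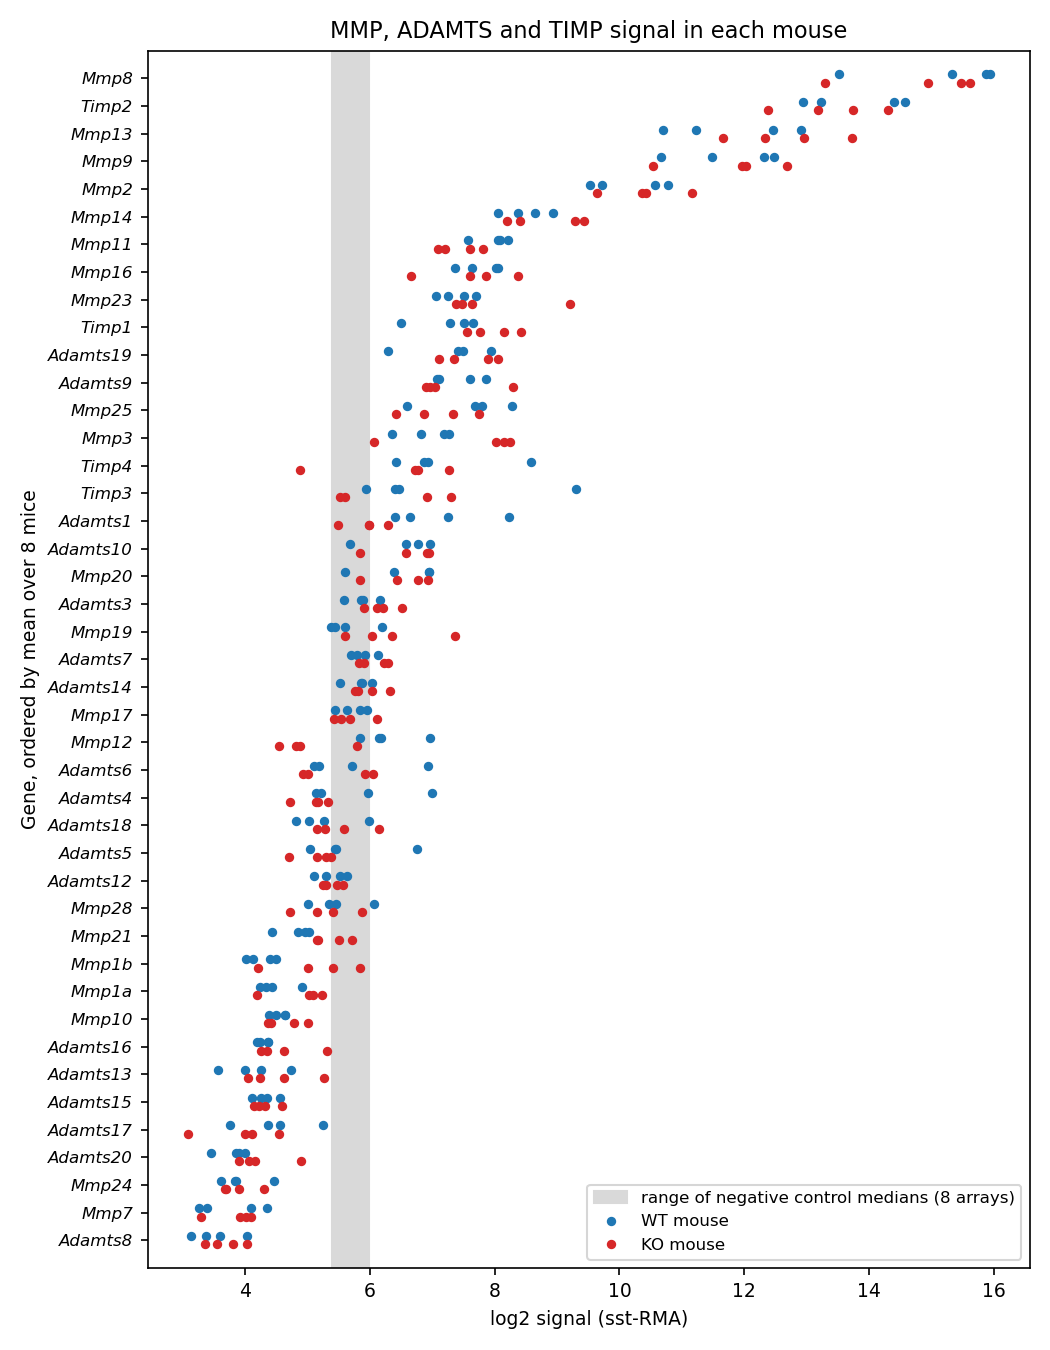
Log2 signal (horizontal axis) of each of the 43 genes (vertical axis, ordered by mean over the 8 mice), with 1 point for each WT mouse (blue) and KO mouse (red) and a grey band from 5.40 to 6.0 log2 for the negative control medians of the 8 arrays. The colours overlap in 40 genes, and in *Mmp12* and *Adamts1* every KO point lies left of every WT point.

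Loss of *Abcc6* was accompanied by a difference at the cutoff in 1 of the 43 genes, *Mmp12*, which was lower in KO mice. The cutoff is that of the study, an unadjusted p of 0.01 or less with a fold change of 1.75 or more, here from limma, a linear model that shares variance between probe sets. Of all probe sets, 0.297% were lower and 0.428% higher in KO mice at this cutoff, so that 1 member lower and 0 higher is a count close to the background. No member passed correction for multiple testing (0 of 43 at an adjusted p under 0.05 in limma, lowest adjusted p = 0.848), and 3 of 43 had an unadjusted p under 0.05, where the background was 5.28%. Testing each probe set on its own variance also left 0 genes after adjustment. The direction was mixed, with 26 genes higher and 17 lower in KO mice and a median difference of 0.07 log2, beside 52.4% higher and a median of 0.03 over all probe sets. By family, 13 of 21 MMPs, 12 of 18 ADAMTS proteases and 1 of 4 TIMPs were higher, with medians of 0.07, 0.11 and −0.54 log2.

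**Figure D2:**
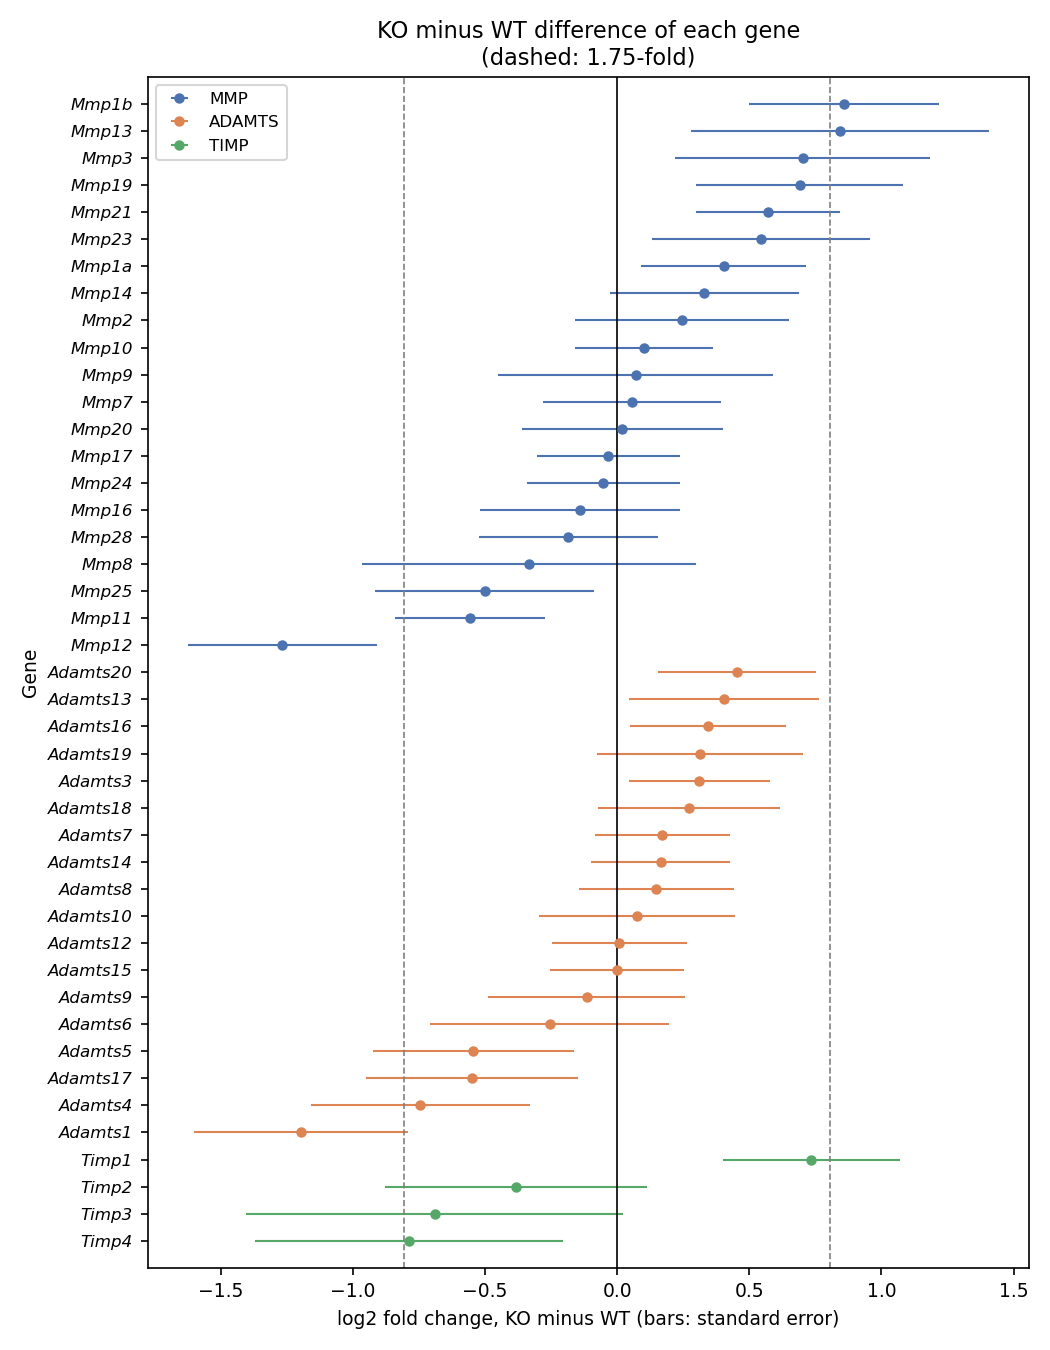
Log2 fold change of KO minus WT (horizontal axis, bars are the standard error from limma) for each of the 43 genes (vertical axis), coloured by family, with dashed lines at 1.75-fold. *Mmp12* (−1.27) and *Adamts1* (−1.20) lie beyond the lower line, and *Mmp1b* (0.86) and *Mmp13* (0.84) just beyond the upper one.

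*Mmp12* encodes macrophage elastase, which cuts elastin and is known from tissue macrophages and osteoclasts. The study had picked the gene from these same samples, so that its call here is not independent evidence. Its signal was 6.17, 6.14, 5.85 and 6.96 log2 in the WT group, against 4.82, 5.80, 4.88 and 4.55 log2 in the KO group. The genotypes did not overlap, although WT mouse 3 and KO mouse 7 were only a small step apart. WT mice averaged 6.28 ± 0.48 (SD, n = 4) and KO mice 5.01 ± 0.54 (SD, n = 4). The difference was −1.27 log2 with a standard error of 0.36, or 2.41-fold lower signal in KO mice, with p = 0.00505 and an adjusted p = 0.848 in limma and p = 0.0286 in an exact permutation test over the mice. Every WT value lay above the negative control median of its array, by 0.20 to 1.30 log2, and every KO value lay below it, so that the KO level was not shown to differ from background. The call at the cutoff was lost without WT mouse 5 (−1.04 log2), KO mouse 6 (−1.20 log2), KO mouse 8 (−1.22 log2) or KO mouse 9 (−1.11 log2), where limma's unadjusted p lay between 0.0120 and 0.0181, and when the gene was tested on its own variance (unadjusted p of 0.0128). With the control contrast as a covariate the log2 fold change was −1.48. The 11 measured macrophage markers averaged 8.02 to 8.60 log2 in WT and 7.62 to 8.89 log2 in KO mice, 6 being higher and 5 lower in KO mice with a median log2 fold change of 0.06. Of these markers, 7 exceeded the negative control median on all arrays and 2, *Cd163* and *Marco*, on none.

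Beside *Mmp12*, *Adamts1* and *Mmp21* showed no overlap between the genotypes. Of all probe sets, 0.973% were lower and 1.55% higher without overlap, and among the members 2 were lower and 1 was higher. *Adamts1* encodes a secreted protease that cuts versican and aggrecan. It read 6.41, 7.26, 8.23 and 6.65 log2 in the WT group, against 6.30, 5.98, 5.99 and 5.49 log2 in the KO group. All KO mice were thus below all WT mice, with KO mouse 6 nearly level with WT mouse 1. All 4 WT mice but only 2 KO mice, 6 and 8, exceeded their negative control median. The difference was −1.20 log2 with a standard error of 0.41 (limma's unadjusted p of 0.0140, adjusted p = 0.848). It was −0.83 log2 without WT mouse 3 and −1.44 log2 without WT mouse 1, which brought it to the cutoff. The exact permutation test over the mice gave p = 0.0286 for *Adamts1*, *Mmp12* and *Mmp21* (two-sided), the smallest value that 4 mice against 4 allow. Any gene without overlap gives this value, so that it restates the lack of overlap.

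*Mmp21*, a secreted MMP known for its part in setting left-right body asymmetry, was higher in KO mice. Its values were 4.44, 4.84, 4.96 and 5.03 log2 in the WT group, against 5.17, 5.15, 5.51 and 5.72 log2 in the KO group. Only KO mouse 8 exceeded the negative control median of its array, so that the WT level was at background, and the log2 fold change of 0.57 (standard error 0.27, limma's unadjusted p of 0.0616, adjusted p = 0.848) stayed under the fold cutoff. After quantile normalization the genotypes overlapped in *Mmp21* and no longer overlapped in *Timp1*. *Mmp1b*, a close paralog of the mouse collagenase *Mmp1a*, was the remaining member with an unadjusted p under 0.05. It read 4.01, 4.13, 4.40 and 4.50 log2 in the WT group, against 5.01, 5.84, 4.21 and 5.42 log2 in the KO group. KO mouse 8 lay within the WT range, and no mouse exceeded its negative control median. KO mice were higher by 0.86 log2 with a standard error of 0.36 (limma's unadjusted p of 0.0370, adjusted p = 0.848). The difference was 1.16 log2 without KO mouse 8, which took it past the cutoff, and 0.45 log2 with the control contrast as a covariate. Without that mouse 4.47% of all probe sets were at the cutoff. *Mmp1a* stood at 4.24 to 4.91 log2 in WT and 4.20 to 5.23 log2 in KO mice, and probes of these paralogs may share signal.

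**Figure D3:**
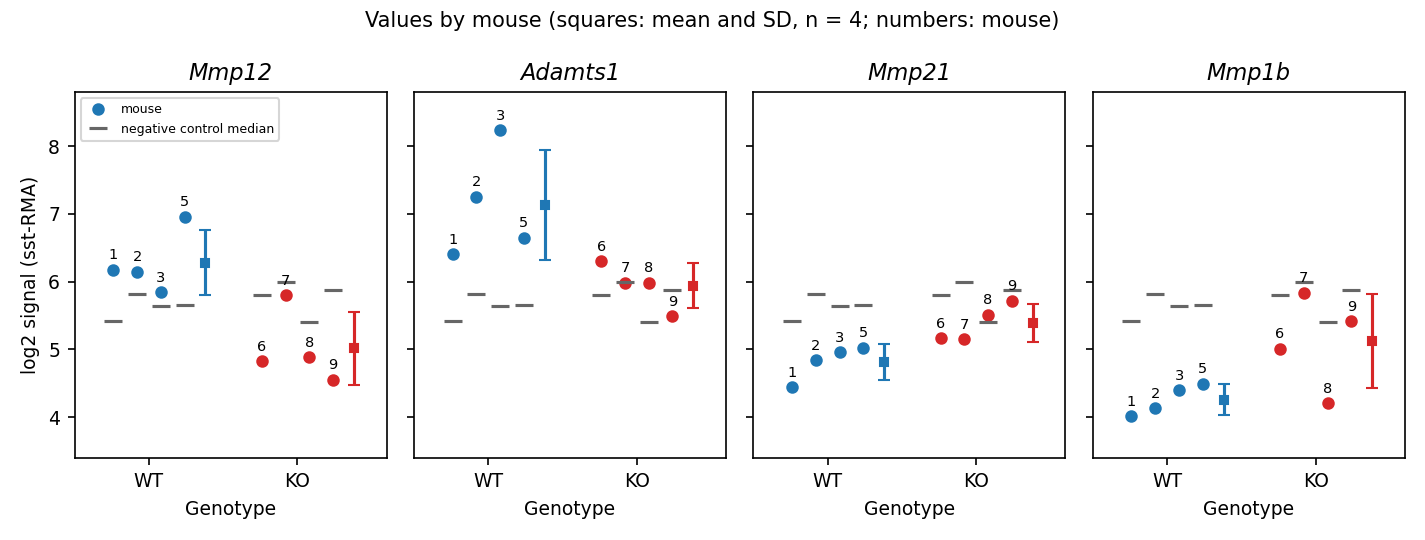
Log2 signal (vertical axis) of *Mmp12*, *Adamts1*, *Mmp21* and *Mmp1b* by genotype, with 1 numbered point for each mouse, a grey dash for the negative control median of that array, and squares with bars for the mean and SD (n = 4). KO values of *Mmp12* all lie under their dashes, and no value of *Mmp1b* lies above its dash.

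A run of 10 neighbouring protein-coding MMP genes lies on chromosome 9, and 9 of them were measured. In the order along the chromosome these were *Mmp13*, *Mmp12*, *Mmp1b*, *Mmp3*, *Mmp1a*, *Mmp10*, *Mmp8*, *Mmp20* and *Mmp7*. This cluster arose by duplication, and its genes encode collagenases, stromelysins, matrilysin, macrophage elastase and the enamel protease MMP20. Several promoters of the cluster are known to carry a binding site of the AP-1 transcription factor close to the start site. The site (TGAGTCA, or TGACTCA on the opposite strand, so that both strands were covered) was searched in the 250 bases before each annotated start of RefSeq in GRCm38.p6. Promoters were at hand for 29 of the 43 genes, and 7 of the 29 held the site, or 24.1%, against 5.16% of 27025 genes with a promoter in the same table. All 7 lay in the cluster, which had 7 of 9 genes with the site, while the other 20 members had 0. Such a match describes letters and not binding. The 110 bases before the start are shown for these 7 genes, because they include the gene with the difference at the cutoff and its neighbours, with the site in capitals.
Mmp13, chr9:7272404-7272513, plus strand: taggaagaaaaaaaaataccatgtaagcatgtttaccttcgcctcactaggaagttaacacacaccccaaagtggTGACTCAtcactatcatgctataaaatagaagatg
Mmp12, chr9:7347264-7347373, plus strand: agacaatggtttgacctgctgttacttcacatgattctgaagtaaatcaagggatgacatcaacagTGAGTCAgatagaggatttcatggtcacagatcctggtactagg
Mmp1b, chr9:7388027-7388136, minus strand: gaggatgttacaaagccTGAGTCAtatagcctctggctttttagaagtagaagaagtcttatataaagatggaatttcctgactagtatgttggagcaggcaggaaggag
Mmp3, chr9:7445712-7445821, plus strand: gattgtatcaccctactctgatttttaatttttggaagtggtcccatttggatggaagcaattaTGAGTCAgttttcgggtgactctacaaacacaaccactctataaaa
Mmp1a, chr9:7464031-7464140, plus strand: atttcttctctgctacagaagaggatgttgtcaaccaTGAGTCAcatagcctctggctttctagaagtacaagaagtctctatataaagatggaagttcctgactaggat
Mmp10, chr9:7502232-7502341, plus strand: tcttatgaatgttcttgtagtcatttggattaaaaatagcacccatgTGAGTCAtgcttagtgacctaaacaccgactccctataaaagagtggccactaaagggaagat
Mmp7, chr9:7691980-7692089, plus strand: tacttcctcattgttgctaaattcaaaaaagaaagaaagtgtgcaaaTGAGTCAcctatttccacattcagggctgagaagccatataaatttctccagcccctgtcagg
The site began 35 bases before the start in *Mmp13*, 44 in *Mmp12*, 46 in *Mmp3*, 63 in *Mmp10* and *Mmp7*, 73 in *Mmp1a* and 93 in *Mmp1b*. For *Mmp12* it preceded 1 of its annotated starts.

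Of the 9 measured genes of the run, 7 were higher and 2 lower in KO mice, where 52.4% of all probe sets were higher. As 4 of the 9 exceeded the negative control median in no mouse, nothing is read from the count. Next to *Mmp12*, *Mmp13*, the main interstitial collagenase of mouse cartilage and bone, read 10.70, 12.46, 12.91 and 11.22 log2 in the WT group, against 11.66, 12.34, 12.95 and 13.73 log2 in the KO group. The ranges overlapped widely, KO mouse 9 being the highest and WT mouse 1 the lowest. The difference of 0.84 log2 (standard error 0.56) did not pass correction for multiple testing (limma's adjusted p = 0.848). It was 0.49 without KO mouse 9 and 0.47 without WT mouse 1. *Mmp3*, stromelysin-1, which cuts proteoglycans and activates other MMPs, read 6.36, 7.20, 6.83 and 7.27 log2 in the WT group, against 8.02, 6.06, 8.14 and 8.24 log2 in the KO group. KO mice 6, 8 and 9 lay above all WT mice and KO mouse 7 below all of them, which left a difference of 0.70 log2 (standard error 0.48, limma's adjusted p = 0.848). Without KO mouse 7 it was 1.22 log2 and reached the cutoff (limma's unadjusted p of 0.00354). *Mmp20* (5.61 to 6.96 log2 over all mice), *Mmp10* (4.37 to 5.01 log2) and *Mmp7* (3.26 to 4.36 log2) had log2 fold changes of 0.02, 0.10 and 0.06.

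**Figure D4:**
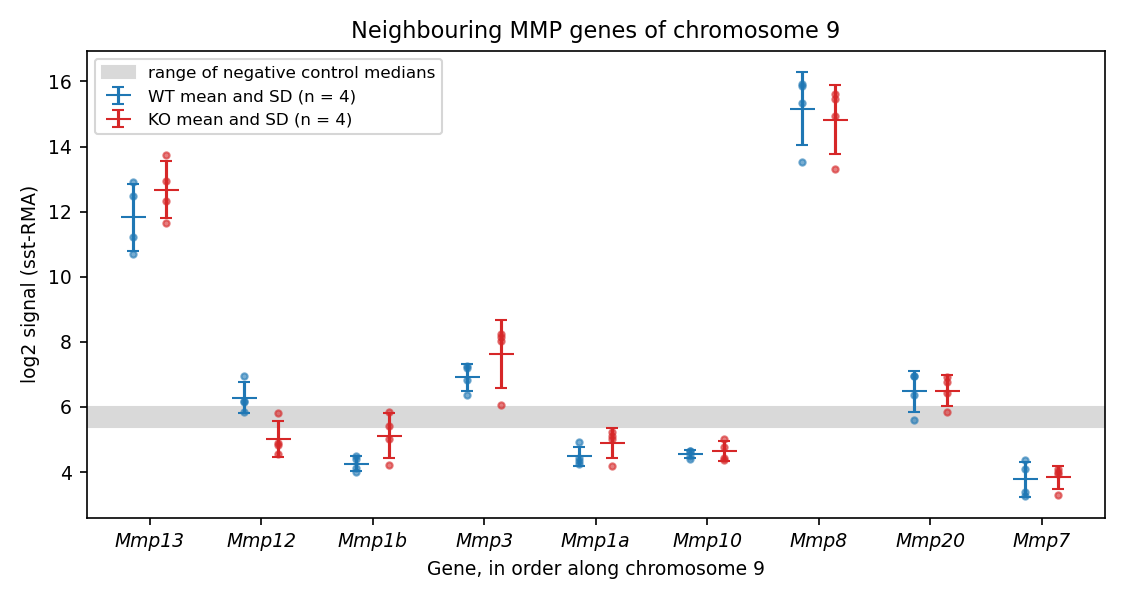
Log2 signal (vertical axis) of the 9 measured MMP genes of the chromosome 9 run in their order along the chromosome (horizontal axis), with points for single mice, dashes and bars for the mean and SD (n = 4), and a grey band for the negative control medians. *Mmp13* and *Mmp8* lie far above the band, whereas *Mmp1b*, *Mmp1a*, *Mmp10* and *Mmp7* do not rise above the negative control median of any array.

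*Mmp8*, *Mmp9* and *Mmp25* encode neutrophil collagenase, gelatinase B and leukolysin, which neutrophils store in granules or carry at their surface. *Mmp8* read 13.52, 15.87, 15.33 and 15.93 log2 in the WT group, against 13.30, 15.46, 15.62 and 14.93 log2 in the KO group. WT mouse 1 and KO mouse 6 were low and the other 6 mice lay close together, so that the spread ran within both genotypes. *Mmp9* was lowest in the same mice, at 10.67 log2 in WT mouse 1 and 10.53 log2 in KO mouse 6, with 11.48 to 12.69 log2 in the others. So was *Mmp25*, at 6.60 and 6.41 log2, with 6.87 to 8.28 log2 in the others. KO minus WT differences were −0.33 (standard error 0.63) for *Mmp8*, 0.07 (standard error 0.52) for *Mmp9* and −0.50 (standard error 0.42) for *Mmp25* on the log2 scale, none of which passed correction for multiple testing (adjusted p of 0.907, 0.976 and 0.848 from limma). Those of *Mmp8* and *Mmp9* changed sign when single mice were left out. The mean of the 12 neutrophil markers was also lowest in KO mouse 6 (15.45 log2), followed by WT mouse 1 (16.84 log2) and KO mouse 7 (16.90 log2). KO mouse 6 was lowest in 9 of the 12 markers, while WT mouse 1 was lowest in 1 and highest in 1, *Prtn3*. In KO mice 11 of 12 were lower, where 52.4% of all probe sets were higher. *Camp*, *Ngp*, *S100a8*, *S100a9* and *Lcn2* differed by only −0.09 to −0.25 log2. *Camp*, *Ngp* and *S100a9* read the same 19.65 log2 in KO mouse 7, and saturation of the arrays was not tested.

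Over the 8 mice, 6 relations between a member and the mean of a marker list were computed. The neutrophil mean includes the basophil gene *Mcpt8*. *Mmp25* followed the neutrophil markers (Pearson's r = 0.782, permutation p = 0.0105, adjusted p = 0.0314), as it did by rank (rho of Spearman = 0.857, permutation p = 0.0107, adjusted p = 0.0643), and r was 0.734 without KO mouse 6 and WT mouse 3, which were farthest from the median of the markers. The r of *Mmp8* with the same list was 0.751 (permutation p = 0.0202, adjusted p = 0.0405), with rho = 0.548 (permutation p = 0.171, adjusted p = 0.205). Without KO mouse 6 and WT mouse 3 its r was 0.573. For *Mmp9*, r was 0.716 (permutation p = 0.0356, adjusted p = 0.0534) with rho = 0.667 (permutation p = 0.0831, adjusted p = 0.125), and r was 0.410 without them. *Mmp9*, which is also a product of osteoclasts, also followed the osteoclast markers by r (0.872, permutation p = 0.00523, adjusted p = 0.0314; rho = 0.714, permutation p = 0.0576, adjusted p = 0.115), and r was 0.869 without WT mice 1 and 5. Its relations with the neutrophil and the osteoclast list were not tested against each other. *Mmp13* with the osteoblast markers (r = 0.621, permutation p = 0.105, adjusted p = 0.125; rho = 0.714, permutation p = 0.0576, adjusted p = 0.115) rested on WT mice 1 and 5, without which r was 0.0979. *Mmp12* with the macrophage markers had r = 0.305 (permutation p = 0.466, adjusted p = 0.466) and rho = 0.286 (permutation p = 0.501, adjusted p = 0.501), and r was 0.712 without KO mice 8 and 9. Relations within a genotype were not computed, and WT and KO mice are pooled in these values. Osteoclast markers averaged 8.54 to 9.52 log2 in WT and 8.90 to 9.97 log2 in KO mice (9 of 10 higher), and osteoblast markers 10.70 to 11.91 log2 and 11.39 to 11.71 log2 (7 of 8 higher). Their part in the levels of *Mmp9* and *Mmp13* between the genotypes was not tested.

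**Figure D5:**
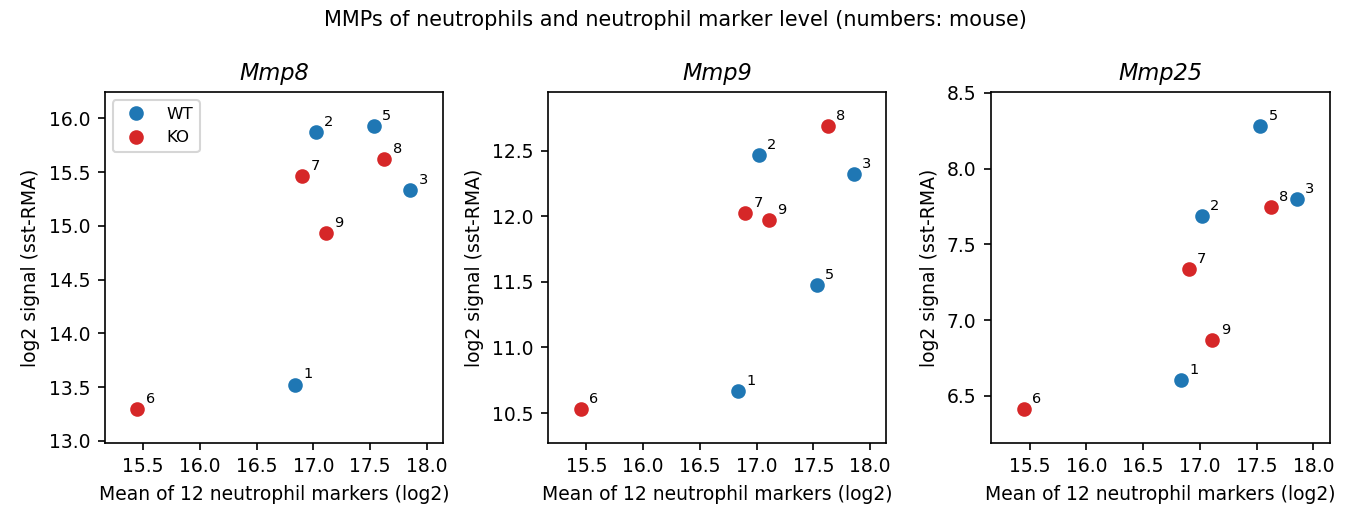
Log2 signal (vertical axes) of *Mmp8*, *Mmp9* and *Mmp25* against the mean log2 signal of 12 neutrophil markers (horizontal axes), with 1 numbered point for each WT mouse (blue) and KO mouse (red). KO mouse 6 and WT mouse 1 have the lowest values of all 3 genes and of the marker mean.

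The gelatinase *Mmp2* and its activator *Mmp14* are enzymes of fibroblasts and of AF cells. *Mmp2* ranged from 9.53 to 10.78 log2 in WT and from 9.65 to 11.16 log2 in KO mice, and *Mmp14* from 8.06 to 8.93 log2 and from 8.20 to 9.44 log2. Both were highest in KO mouse 8. Neither difference exceeded its error, with log2 fold changes of 0.25 (standard error 0.40) for *Mmp2* and 0.33 (standard error 0.36) for *Mmp14*. *Mmp11*, stromelysin-3, read 8.22, 8.09, 8.05 and 7.58 log2 in the WT group, against 7.21, 7.09, 7.81 and 7.61 log2 in the KO group. The genotypes overlapped through WT mouse 5, and the difference of −0.56 log2 (standard error 0.28, limma's unadjusted p of 0.0775) did not reach the cutoff. Of the 5 measured membrane-type MMPs 4 were lower in KO mice, with values from −0.50 to 0.33 log2. *Mmp16* ranged from 7.37 to 8.05 log2 in WT and from 6.67 to 8.38 log2 in KO mice, while *Mmp17* and *Mmp24* differed by −0.03 and −0.05 log2. *Mmp23* stood at 7.06 to 7.70 log2 in WT mice and at 7.38 to 7.64 log2 in 3 KO mice, but at 9.20 log2 in KO mouse 8. *Mmp19* was above its negative control median in 4 KO mice and 1 WT mouse, with 5.38 to 6.19 log2 in WT and 5.61 to 7.37 log2 in KO mice (log2 fold change 0.69, standard error 0.39).

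*Adamts4* and *Adamts5* encode the main aggrecanases of cartilage. *Adamts4* read 5.98, 5.23, 7.00 and 5.13 log2 in the WT group, against 4.73, 5.16, 5.14 and 5.33 log2 in the KO group. Only WT mice 1 and 3 exceeded the negative control median. *Adamts5*, the direct neighbour of *Adamts1* on chromosome 16, read 5.05, 5.46, 6.76 and 5.44 log2 in the WT group, against 5.30, 5.16, 5.37 and 4.71 log2 in the KO group, and only WT mouse 3 exceeded that median. Both genes were thus at background in all KO mice. Their log2 fold changes of −0.74 (standard error 0.41) and −0.54 (standard error 0.38) did not pass correction for multiple testing (adjusted p = 0.848 for both from limma), and were −0.35 and −0.18 without WT mouse 3. Among the 7 proteoglycan-cutting ADAMTS proteases, 4 were lower and 3 higher in KO mice, with a median log2 fold change of −0.12. *Adamts9* ranged from 7.08 to 7.87 log2 in WT and from 6.90 to 8.30 log2 in KO mice (log2 fold change −0.12). *Adamts8*, *Adamts15* and *Adamts20* did not exceed the negative control median in any mouse.

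None of the other ADAMTS proteases had an unadjusted p under 0.05 in limma. The procollagen N-proteinases *Adamts3* and *Adamts14* had log2 fold changes of 0.31 and 0.17, and *Adamts7* and *Adamts12*, which cut the cartilage protein COMP, 0.17 and 0.01. *Adamts13*, the protease of von Willebrand factor, was under the negative control median in all mice (log2 fold change 0.41). The microfibril-associated *Adamts6* and *Adamts10* had log2 fold changes of −0.26 and 0.07. *Adamts16*, *Adamts18* and *Adamts19* were higher by 0.34, 0.27 and 0.32 log2, and *Adamts17* was at −0.55 log2. *Adamts12*, *Adamts16* and *Adamts17* lay at background in all mice, and *Adamts17* reached the cutoff when the control contrast was a covariate.

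Of the inhibitors, *Timp1* was higher and *Timp2*, *Timp3* and *Timp4* were lower in KO mice, none at the cutoff. *Timp1*, which binds most secreted MMPs, read 7.29, 7.51, 7.65 and 6.50 log2 in the WT group, against 7.77, 7.56, 8.14 and 8.43 log2 in the KO group. The genotypes overlapped only because WT mouse 3 stood above KO mouse 7. KO mice were higher by 0.73 log2 with a standard error of 0.34 (limma's unadjusted p of 0.0522, adjusted p = 0.848, exact permutation p = 0.0571), or by 0.49 log2 without WT mouse 5. *Timp2*, which also takes part in the activation of *Mmp2* by *Mmp14*, ranged from 12.94 to 14.57 log2 in WT and from 12.38 to 14.30 log2 in KO mice, which left a difference of −0.38 log2 (standard error 0.50). Leaving out single mice moved this to between −0.68 log2 (KO mouse 6 left out) and −0.042 log2 (KO mouse 7 left out), with −0.12 log2 when WT mouse 1 and −0.18 log2 when WT mouse 3 was left out. *Timp3*, which is held in the matrix, read 6.40, 6.46, 9.30 and 5.95 log2 in the WT group, against 6.91, 5.61, 7.30 and 5.52 log2 in the KO group. WT mouse 3 alone carried the difference, as the log2 fold change was −0.69 (standard error 0.71) with it and 0.07 without it. *Timp4* had its highest value, 8.59 log2, in the same mouse and its lowest, 4.89 log2, in KO mouse 7, with 6.42 to 7.27 log2 in the others. The difference was −0.79 log2 (standard error 0.58, limma's adjusted p = 0.848), or −0.33 without WT mouse 3 and −0.28 without KO mouse 7. With the control contrast as a covariate, the log2 fold changes were 0.88 for *Timp1*, 0.19 for *Timp2*, 0.04 for *Timp3* and −0.11 for *Timp4*.

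WT mouse 3 held the highest of the 8 values in 6 of 43 members, which were *Adamts1*, *Adamts4*, *Adamts5*, *Adamts6*, *Timp3* and *Timp4*. This is close to its share over all probe sets, 13.6%, and nothing is read from the count. Of the 12 AF and cartilage markers 6 were highest in WT mouse 3 and 1, *Thbs4*, was lowest there, and their mean was 11.38 log2 in that mouse and 9.53 to 10.83 log2 elsewhere.

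Genes that activate, inhibit, clear, bind or serve as substrates of these proteases were taken from a list of 66, of which 61 were measured. At the cutoff 0 were higher and 0 lower in KO mice, and 4 of the 61 had an unadjusted p under 0.05 in limma, beside the background of 5.28%. Of the 61, 22 were higher and 39 lower, with a median log2 fold change of −0.15. All 9 co-receptors and regulators were lower (median −0.66 log2), as were 5 of 6 ADAM proteases (median −0.48 log2), while 7 of 18 substrates were higher. Over all probe sets 52.4% were higher. Of the 9, *Bsg*, *Cd44*, *Ddr2*, *Fn1*, *Sdc4*, *Thbs1* and *Thbs2* were highest in WT mouse 3, *Itgav* in WT mouse 2 and *Sdc1* in KO mouse 6. The count without WT mouse 3 was not computed. Some marker lists were also mostly lower in KO mice. These were 9 of 12 AF and cartilage markers (median −0.18 log2), 7 of 9 skeletal muscle markers (median −0.38 log2) and 3 of 4 Schwann cell markers (median −1.45 log2). Others were mostly higher, with 6 of 7 nucleus pulposus markers (median 0.39 log2), 9 of 10 osteoclast and 7 of 8 osteoblast markers. WT mouse 1 alone held the highest value of all 4 Schwann cell markers and of 6 of the 9 muscle markers. The list means ran from 10.17 to 11.38 log2 in WT and from 9.53 to 10.83 log2 in KO mice for AF and cartilage, from 6.10 to 7.38 and from 5.88 to 6.25 log2 for muscle, and from 8.32 to 11.65 and from 7.45 to 9.07 log2 for Schwann cells. At the cutoff were *Mbp* (−1.69 log2), a myelin protein, and *Tnnt3* (−1.40 log2), a muscle troponin. In *Tnnt3* only WT mouse 1 exceeded its negative control median, and the genotypes overlapped (3.77 to 5.83 log2 in WT and 3.22 to 3.86 log2 in KO mice). The part of these tissues in the pathway list was not tested. *Vcan*, the proteoglycan versican that ADAMTS proteases cut, read 14.48, 13.27, 17.40 and 14.29 log2 in the WT group, against 14.31, 10.95, 12.87 and 11.82 log2 in the KO group. WT mouse 3 was again the highest, KO mouse 6 was level with WT mouse 5, and the difference was −2.37 log2 (standard error 0.90, limma's unadjusted p of 0.0240), or −1.52 log2 without WT mouse 3 and −2.98 log2 without KO mouse 6, where it reached the cutoff. *Sdc4*, a syndecan that binds ADAMTS5 at the cell surface, ranged from 11.17 to 15.02 log2 in WT and from 9.41 to 11.90 log2 in KO mice (log2 fold change −2.01, standard error 0.78). It was −1.31 without WT mouse 3, −1.25 with the control contrast as a covariate, and −2.59 and at the cutoff without WT mouse 5. *Plaur*, the receptor of the plasminogen activator urokinase, ranged from 8.63 to 11.08 log2 and from 6.96 to 9.36 log2 (log2 fold change −1.51, standard error 0.59). The difference ran from −1.04 log2 without WT mouse 3 to −1.92 log2 without KO mouse 8, where it reached the cutoff, as did 4.47% of all probe sets. *Lum*, the collagen-binding proteoglycan lumican, was the higher of the 4, with 11.70 to 13.99 log2 in WT and 13.62 to 14.02 log2 in KO mice (log2 fold change 1.03, standard error 0.44), or 0.65 without WT mouse 1 and 1.42 without WT mouse 5, where it reached the cutoff. Limma's adjusted p-value was 0.848 for each of the 4 genes.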

How the data were processed

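Lumbar AF RNA of 4 WT and 4 KO mice was labelled with the GeneChip WT Plus kit, hybridised to Clariom S arrays and summarised by the authors in the Transcriptome Analysis Console. The deposited values are log2 signal after sst-RMA, 1 array for each mouse, and 0 columns were left out. The genome build behind the probe sets was not given in the sources used here, and the detection p-values of the study's filter were not used here. Of 28846 probe sets, 6640 controls were left out. Of the 22206 tested, 19572 carried 1 gene symbol and 2634 none. All 43 member symbols were found in the GRCm38.p6 annotation, which served for names and neighbours.

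Each probe set was fitted by genotype alone using lmFit and eBayes of limma 3.58.1 (R 4.3.3), with Benjamini-Hochberg adjustment over all 22206 probe sets. The fit was tested on simulated data. Permutation tests were exact and two-sided, over all splits or orders of the mice, and correlations were adjusted over 6 relations. Members, gene lists and tests were chosen with earlier results of these data known.

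Named were members with an unadjusted p under 0.05, without overlap or with an outlying mouse, the 10 with the highest mean, the TIMPs, *Mmp12* and 8 textbook disc proteases, and pathway genes with an unadjusted p under 0.05. Members that the text adds to these were named after their values were seen. Alternatives were quantile normalization, median centring, a filter on signal, array quality weights, robust priors with an intensity trend, an unpaired t-test of each probe set, which the methods name for other data and not for the arrays, the control contrast as a covariate, other cutoffs and leaving out each mouse. The number of arrays limits the precision.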

Additional observations from a re-analysis of the deposited data

Results flagged for a closer look

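A mouse stood apart from the other 3 of its genotype in 4 of 86 groups examined (43 genes in 2 genotypes), where chance gives about 5%. *Timp3* was 9.30 log2 in WT mouse 3, with the next WT mouse at 6.46 log2. *Mmp3* was 6.06 log2 in KO mouse 7, with the next KO mouse at 8.02 log2. *Mmp23* was 9.20 log2 in KO mouse 8 and 7.64 log2 in the next, and its log2 fold change went from 0.54 to 0.12 without that mouse. *Adamts9* was 8.30 log2 in KO mouse 7 and 7.04 log2 in the next.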

How the results depend on the processing

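The number of members at the cutoff was 1, and it was 2 with quantile normalization (*Mmp12* and *Adamts1*), with array quality weights (*Mmp12* and *Mmp1b*) and with the control contrast as a covariate (*Mmp12* and *Adamts17*). It was 0 by an unpaired t-test and 3 at p of 0.05 or less with a fold change of 1.5 or more (*Adamts1*, *Mmp12* and *Mmp1b*). It ran from 0 to 2 when single mice were left out, with 0 without WT mouse 5, KO mouse 6 or KO mouse 9. The share of all probe sets at the cutoff moved as well, from 0.297% lower and 0.428% higher in the main fit. In both directions together it was 0.666% with quantile normalization, 3.17% with array weights, 0.320% with the covariate and 0.329% by the t-test. Without single mice it ran from 0.221% (WT mouse 3) to 4.47% (KO mouse 8). Nothing is read from the member counts, and the share at the looser cutoff is not given here. Members without overlap numbered 3. With quantile normalization they were also 3, but *Timp1* took the place of *Mmp21*, with median centring they were 4, *Adamts20* being added, and the filter on signal left 2. They numbered 3 to 6 without single mice (5 without WT mouse 5, 6 without KO mouse 7 or KO mouse 8), since fewer mice overlap less easily. The matching share over all probe sets is not given for these alternatives, and nothing is read from the counts. Pathway genes at the cutoff went from 0 to 1 with array weights (*Plaur*), to 4 at the looser cutoff and to between 0 and 2 without single mice, with 2 without WT mouse 5. Above the 95th percentile of the negative controls on all arrays were 3 members, from 16 above their median. With the control contrast as a covariate *Timp2* (0.19 log2) and *Timp3* (0.036 log2) changed sign, and with array weights *Mmp9* (−0.089 log2) did. Without single mice the differences ran from −0.88 to 0.18 log2 for *Mmp8*, −0.29 to 0.49 for *Mmp9*, −0.0089 to 0.50 for *Mmp2*, −0.39 to 0.18 for *Mmp16*, −1.05 to 0.068 for *Timp3* and −0.45 to 0.036 for *Adamts9*. The cause was not tested. *Mmp12* stayed lower in every alternative, from −1.04 to −1.53 log2, as did *Adamts1*, from −0.83 to −1.44 log2. The filter on signal left out *Adamts4*, *Adamts5*, *Mmp21* and *Mmp1b*. The lowest adjusted p of any member was 0.204, without KO mouse 8. No paired analysis was possible because the genotypes share no mouse numbers.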

Other observations

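The number of members at their extreme value differed between mice. WT mouse 1 held the lowest of the 8 values in 14 of 43 members, against 15.4% of all probe sets, and KO mouse 6 in 8, against 13.5%. Of the 26 members above the negative control median on at least 4 arrays, WT mouse 1 was lowest in 6 and KO mouse 6 in 7. KO mouse 7, with the lowest control contrast (2.37), held the highest value in 10 of 43 members, against 17.3% of all probe sets, and in 5 of the 26 above background on at least 4 arrays. The counts over all 43 include members at background, and the share over all probe sets that matches the 26 is not given here. These mice were singled out after the values were seen, no test was made, and nothing is read from the counts.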
